A study of Danio rerio with 4 samples.

Results

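Genes of DNA replication and mitosis were followed in zebrafish embryonic hearts, dissected by hand at an age of 72 hours post fertilization (hpf). The set holds 32 genes chosen by symbol. Of these, 28 had a named probe on the array and all 28 passed the filter on dim probes, out of 11536 genes tested. No probe is named here for mki67, bub1, bub1ba and cenpf, so these 4 were not analysed. The symbol rrm2 is an older alias of 2 genes, rrm2l and rrm2b. It was followed through rrm2l, and rrm2b is given beside it.

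The study compared 2 pools of wild-type (WT) hearts with 2 pools of hearts from ccm2 m201 mutants, each pool on 1 single-colour Agilent array and all at 72 hpf. The adaptor protein Ccm2 belongs to the cerebral cavernous malformation complex, which acts in endothelium and endocardium, and the comparison asked which cardiac genes depend on it. No transgene or treatment of WT embryos is given. For both mutant samples the description field names overexpression of Bmp2b, whereas title, source and genotype name only the ccm2 mutation, and which of these holds is not settled. Whether pools of a group stem from different clutches is not stated. The p-values then measure only the spread between these samples, which may be technical. In pooled tissue, fewer cycling cells and less RNA per cycling cell cannot be told apart.

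Before a cell copies its DNA, the Mcm2 to Mcm7 proteins are loaded on origins as a ring that becomes the core of the replicative helicase, and Pcna forms the sliding clamp that holds polymerases on the template. Thymidylate synthase, thymidine kinase and ribonucleotide reductase supply the deoxynucleotides. Cyclins switch on cyclin-dependent kinases in turn, and mitosis is driven by Cdk1 with cyclin B, by the Plk1 and Aurora kinases and by kinesin motors, until the anaphase-promoting complex with Cdc20 and Ube2c marks cyclin B for destruction. In the zebrafish heart, cardiomyocytes still divide at this age, and so do endocardial cells.

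The median log2 difference, mutant minus WT, was -0.55 over the 11 genes of the helicase, clamp and nucleotide supply and -0.09 over 10 mitosis genes, a contrast that was not tested. No gene of the set passed the test (limma, Benjamini-Hochberg over all tested probes): 0 of 28 were called, against 17.1% of the 11536 genes (8.10% higher in mutants, 9.02% lower). At an unadjusted p under 0.05 there were 8 of 28, all with lower signal in mutants, against 35.7% of genes in either direction and 18.8% lower. This count was 2 of 28 with median scaling, where 1670 of 11536 genes were lower at that p. With no scaling it was 1 of 28, against 1559 of 11536. The median difference was -0.27 over the 28 genes and -0.04 over all tested genes. The single estimates ran from -0.89 for ccne2 to 0.11 for cenpe, and none reached 1 in size, which 23.8% of all tested genes did. These point estimates of the probes used were all under 2-fold. Limma confidence intervals of several genes reached past 2-fold, for ccne2 from -1.55 to -0.23, so the differences are not shown to be small. Among the other tested probes of these genes, 1 of mcm6 and 1 of rrm2l were past 2-fold, at -1.15 and -1.96.

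On both mutant arrays 19 of the 28 genes lay below both WT arrays, 0 lay above and 9 overlapped. Of all tested genes 67.8% did not overlap, 35.0% wholly lower and 32.8% wholly higher. Estimates below 0 numbered 26 of 28, against 52.3% of genes. Direction depends in part on how arrays are scaled, because the median of all genes moved from -0.04 to 0.12 with median scaling and to 0.17 with no scaling. With those scalings 17 of the 28 estimates were below 0, and 14 and 13 genes lay wholly below WT, against 26.9% and 24.5% of genes, with 2 and 6 wholly above, against 40.1% and 43.4%. Relative to the median of all genes, which these 3 scalings cannot change, 24 of the 28 were lower. That count was 19 with no filter on dim probes, 21 with normexp on raw signal and from 21 to 27 with 1 array left out.

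**Figure D1:**
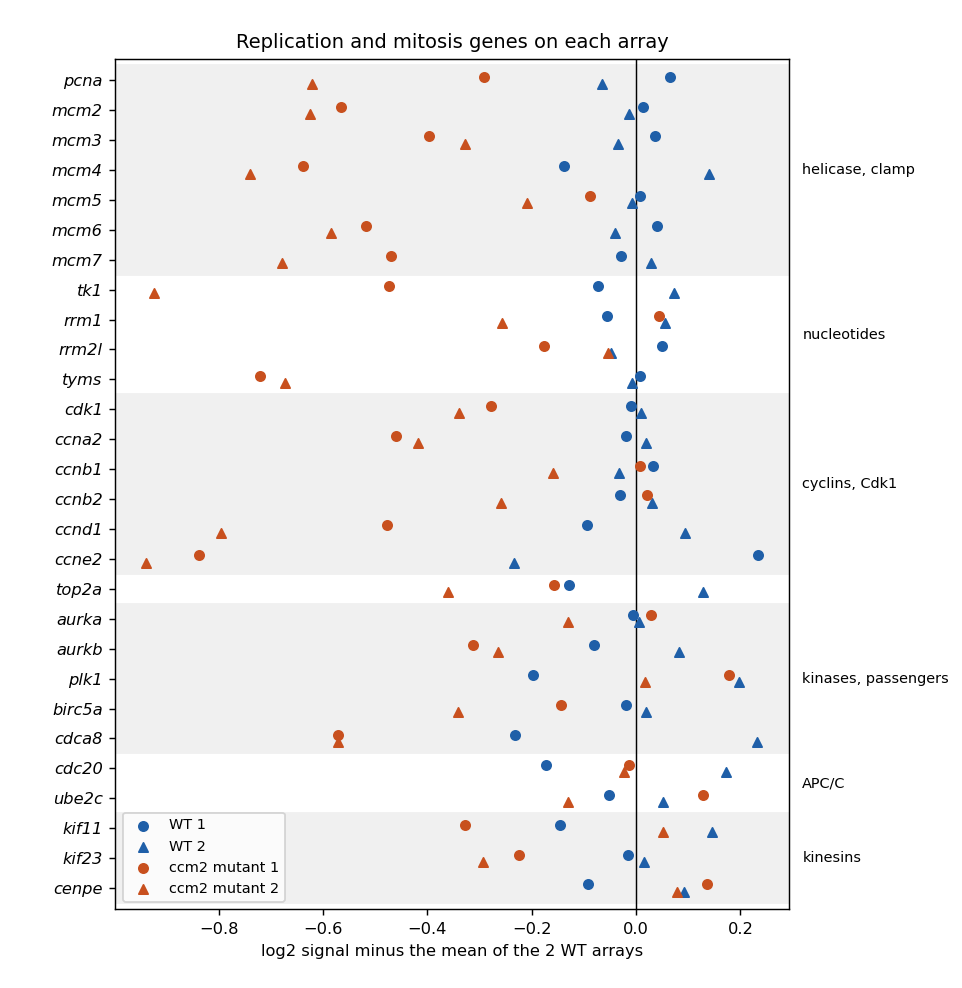
Each of the 28 tested genes is a row, grouped by role, and the horizontal axis gives its log2 signal on each array minus the mean of the 2 WT arrays. WT arrays are blue and ccm2 mutant arrays orange; the mutant points of the 7 helicase and clamp genes lie left of both WT points in every row, whereas those of cdc20, ube2c, plk1 and cenpe mix with them (for mcm5 this order is lost with median scaling or no scaling).

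The median difference of the 7 helicase and clamp genes was -0.55 (-0.40 with median scaling and -0.34 with no scaling). All 7 had both mutant arrays below both WT arrays, against 35.0% of all tested genes. With median scaling or no scaling it was 6 of 7, against 26.9% and 24.5% of all tested genes. There the estimate of mcm5 turned to 0.0057 and 0.066. None of the 7 passed the test. The log2 signal of mcm2 was 13.40 and 13.37 on the WT arrays and 12.82 and 12.76 on the mutant arrays. The difference of -0.59 ± 0.17 (SE), about 1.51-fold, exceeded the spread within either group, with SDs of 0.018 and 0.042 (n = 2 each), yet its limma adjusted p was 0.0933. For mcm4, WT arrays read 10.79 and 11.07 and mutant arrays 10.29 and 10.19. That is a difference of -0.69 ± 0.20 (SE, adjusted p = 0.0958), and a second mcm4 probe gave -0.69 as well.

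The ring subunits mcm6 and mcm7 gave similar values. The mcm6 probe read 11.79 and 11.71 in WT and 11.23 and 11.16 in mutants, a difference of -0.55 ± 0.17 (SE, adjusted p = 0.111). Its 3 other probes gave -0.61, -0.75 and -1.15, so the 4 probes agreed in direction and differed in size. The signal of mcm7 was 14.69 and 14.75 in WT against 14.25 and 14.04 in mutants, a difference of -0.57 ± 0.18 (SE, adjusted p = 0.118). The groups were well apart for both genes.

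The smallest estimate of this role was that of mcm5, at 12.52 and 12.51 in WT and 12.43 and 12.31 in mutants. Its difference was -0.15 (95% interval -0.62 to 0.33), while its other probes gave -0.37 and -0.69. For mcm3 the difference was -0.36 (interval -0.83 to 0.11), and a second probe, not well above background on 1 of the WT arrays, gave 0.20. The clamp gene pcna read 12.14 and 12.004 in WT and 11.78 and 11.45 in mutants. Its difference of -0.46 ± 0.21 (SE) had an adjusted p of 0.221, and the 2 other pcna probes gave -0.35 and -0.43.

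**Figure D2:**
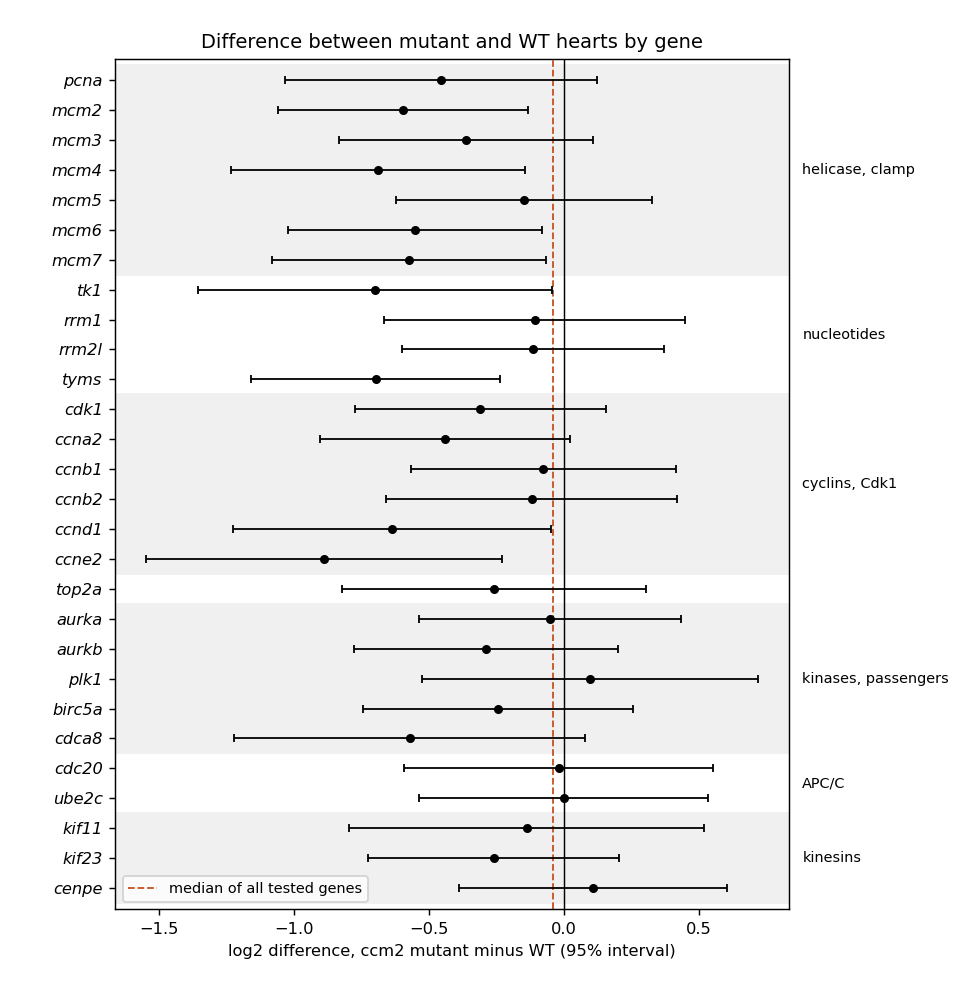
For each gene the point is the log2 difference, ccm2 mutant minus WT, and the bar its 95% interval from the limma fit with n = 2 arrays per group; the dashed line is the median of all tested genes, -0.04. Intervals lie wholly below 0 for mcm2, mcm4, mcm6, mcm7, tk1, tyms, ccnd1 and ccne2, and none of the 28 genes passed after adjustment. With median scaling 2 of the 28 had a limma unadjusted p under 0.05, and with no scaling 1.

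The nucleotide genes split by size of difference. tyms, for thymidylate synthase, had the smallest p of the whole set, with 10.79 and 10.78 in WT and 10.07 and 10.11 in mutants. The arrays of each group nearly coincided, and the difference was -0.70 ± 0.17 (SE, adjusted p = 0.0679), a 1.62-fold lower mean. tk1, for the cytosolic thymidine kinase, read 6.74 and 6.89 in WT and 6.34 and 5.89 in mutants. The mutant arrays differed by more than the WT arrays here, and the difference was -0.70 ± 0.24 (SE, adjusted p = 0.132), with -0.64 from a second probe. For rrm1, the large subunit of ribonucleotide reductase, the probe used overlapped between groups at 12.43 and 12.55 in WT and 12.53 and 12.23 in mutants. Its difference was -0.11, and the other rrm1 probes gave -0.24 and -0.15, each wholly lower in mutants with the main scaling. For the probe at -0.15 the nearest arrays read 12.17 in WT and 12.09 in mutants.

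The small subunit of that enzyme gave conflicting probes. The rrm2l probe of highest signal read 12.64 and 12.54 in WT and 12.42 and 12.54 in mutants, a difference of -0.11 (interval -0.60 to 0.37, adjusted p = 0.700). The other rrm2l probe read 11.17 and 11.19 in WT and 9.34 and 9.10 in mutants. This second probe fell by 1.96 ± 0.19 (SE, adjusted p = 0.0131) and was the only probe called among the 53 tested probes of the set, where 16.3% of all named tested probes were called. The files do not say which transcripts either probe detects. With any 1 array left out, the difference of the called probe lay between -2.08 and -1.84. It was no longer called, but such fits leave 1 array in a group and lose calls over all genes. They cannot judge this probe on its own.

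rrm2b, which encodes the subunit variant known in mammals for p53-induced supply of nucleotides outside S phase, read 7.43 and 7.78 in WT and 6.31 and 6.11 in mutants. It fell by 1.40 ± 0.22 (SE, adjusted p = 0.0308) and would be a called member if the alias were read as that gene. Without single arrays its difference lay between -1.57 and -1.22. This call was lost as well, under the same limit.

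**Figure D3:**
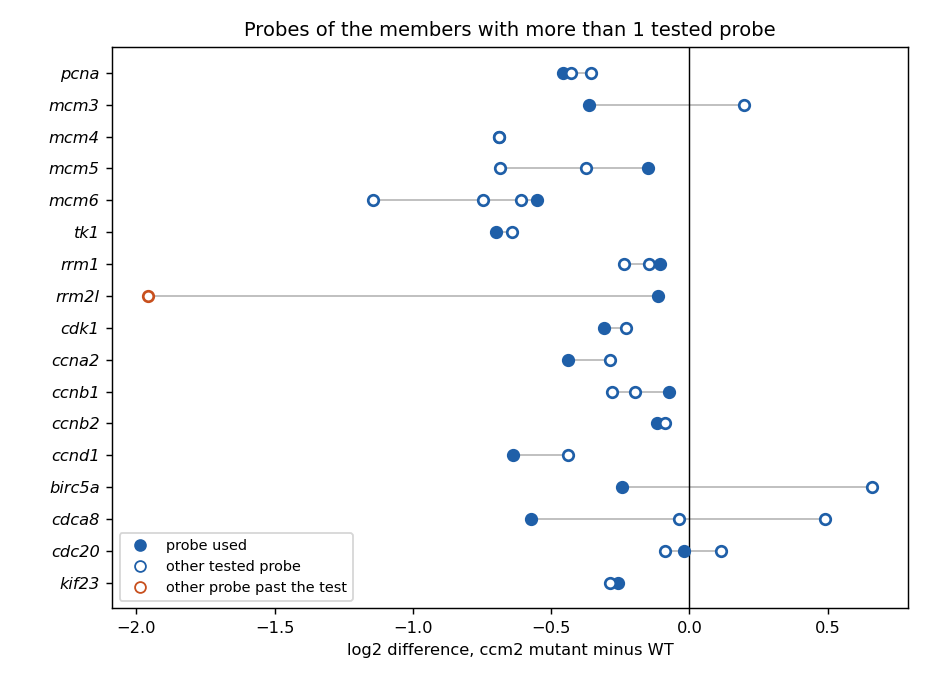
For the 17 genes with more than 1 tested probe, each circle is a probe's log2 difference, ccm2 mutant minus WT; the filled circle is the probe used and the orange outline marks a probe past the test. With the main scaling shown, the probes of 13 genes share a sign and those of mcm3, birc5a, cdca8 and cdc20 do not. The 2 rrm2l probes lie farthest apart, at -0.11 and -1.96.

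Where several probes were tested, the direction mostly held with the main scaling. Of 17 such genes, 13 had probes of a single sign there. This count depends on the scaling: with median scaling the 2 rrm2l probes gave 0.040 and -1.80. The second birc5a probe, not well above background on either WT array, gave 0.66, and a further cdca8 probe gave 0.49. In cdc20 the 3 probes lay around 0, from -0.09 to 0.11.

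Cyclins of G1 and of S phase lay lower, and the cyclin B probes of highest signal overlapped between the groups. ccnd1, for cyclin D1, which couples growth signals to the start of the cycle, read 9.83 and 10.02 in WT and 9.45 and 9.13 in mutants. Its difference was -0.64 ± 0.21 (SE, adjusted p = 0.128), and a second probe gave -0.44. ccne2, for cyclin E2, which acts with Cdk2 at entry into S phase, had the largest estimate of the set. It read 5.71 and 5.24 in WT and 4.64 and 4.54 in mutants, a difference of -0.89 ± 0.24 (SE, adjusted p = 0.0851). The WT arrays themselves were 0.47 apart.

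ccna2, for cyclin A2 of S and G2 phase, gave 10.76 and 10.80 in WT and 10.32 and 10.36 in mutants, a difference of -0.44 ± 0.17 (SE, adjusted p = 0.162). cdk1, the kinase that drives entry into mitosis, was at 11.91 and 11.93 in WT and 11.64 and 11.58 in mutants. Both were separate between the groups with a spread of under 0.1 within each. The difference for cdk1 was -0.31 (interval -0.77 to 0.15, adjusted p = 0.286). Of the cyclin B genes, ccnb2 read 8.91 and 8.97 in WT and 8.97 and 8.69 in mutants, a difference of -0.12. Its other probe gave -0.09 and overlapped as well. The ccnb1 probe used differed by -0.08, while its other probes gave -0.20 and -0.28, each wholly lower in mutants with the main scaling. For the probe at -0.20 the nearest arrays read 9.58 in WT and 9.55 in mutants. For the probes used of ccnb2 and ccnb1, the signs turned with median scaling, to 0.036 and 0.079. With no scaling they turned to 0.096 and 0.14.

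The chromosome and mitosis genes showed little. top2a, for the topoisomerase that untangles sister chromatids, read 10.03 and 10.28 in WT and 9.999 and 9.80 in mutants, so the groups did not overlap though WT 1 and mutant 1 nearly met. The difference was -0.26 (interval -0.82 to 0.30). Over the 10 genes for mitotic kinases, the passenger complex, the anaphase-promoting complex and kinesins, the median was -0.09, which turned to 0.060 with median scaling and 0.12 with no scaling. Of these 10, 4 were wholly lower in mutants, near the 35.0% of all tested genes, and 6 overlapped. With median scaling 2 were wholly lower, against 26.9% of all tested genes, and with no scaling 1, against 24.5%.

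By the probes used, the passenger gene cdca8, for borealin, stood farthest out among them, at 10.84 and 11.30 in WT and 10.4998 and 10.498 in mutants. Its difference was -0.57 ± 0.23 (SE, adjusted p = 0.185), with a gap of 0.46 between the WT arrays. The other cdca8 probes, of lower signal but well above background on every array, gave 0.49 and -0.04. birc5a, for survivin of the same complex, read 9.66 and 9.70 in WT and 9.54 and 9.34 in mutants, a difference of -0.24. aurkb, its kinase, differed by -0.29 (interval -0.78 to 0.20), whereas aurka, the centrosomal Aurora kinase, differed by -0.05 and plk1 by 0.10 (interval -0.52 to 0.72). The kinesin gene kif23, needed for cytokinesis, differed by -0.26, the spindle motor gene kif11 by -0.14 and the kinetochore motor gene cenpe by 0.11.

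cdc20, the activator of the anaphase-promoting complex, read 8.99 and 9.34 in WT and 9.15 and 9.14 in mutants, so that both mutant arrays lay between the WT arrays. ube2c, the ubiquitin-conjugating enzyme of that complex, differed by -0.00047, with an interval of -0.54 to 0.54. An interval of this width does not show a lack of change. Whether the roles differ from each other was not tested.

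The arrays also differed within groups by role. WT 2 lay above WT 1 in 10 of the 10 mitosis genes, by a median of 0.17, and in 4 of the 11 helicase, clamp and nucleotide genes, by a median of -0.01. Over all tested genes WT 2 was above in 5402 of 11536, with a median of -0.02. Mutant 2 lay below mutant 1 in most genes of the set, since it was above in only 6 of 28. Over all tested genes mutant 2 was above in 4982 of 11536, with a median of -0.06. Leaving out WT replicate 1 moved the mitosis median from -0.09 to -0.23, and leaving out WT replicate 2 moved it to -0.02. The median of the 11 replication and nucleotide genes stayed between -0.47 and -0.62 whichever array was left out.

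Other genes of the cell cycle were read from 4 related lists. Of all tested genes, 52.3% had estimates below 0 and 35.0% lay wholly lower in mutants. An unadjusted p under 0.05 was reached by 35.7% of all tested genes, 18.8% with lower signal, and limma called 17.1%. Among 32 tested genes of replication origins and forks, limma called 0, while 30 estimates were below 0, 24 genes were wholly lower in mutants and 13 had an unadjusted p under 0.05; the median was -0.35 (-0.20 with median scaling and -0.14 with no scaling). rpa1, for the largest subunit of the single-strand binding protein RPA, read 10.51 and 10.77 in WT and 9.69 and 9.80 in mutants, a difference of -0.90 ± 0.19 (SE, adjusted p = 0.0560). dnmt1, which maintains DNA methylation behind the fork, read 12.24 and 12.09 in WT and 11.39 and 11.34 in mutants, a difference of -0.80 ± 0.17 (SE, adjusted p = 0.0574). Neither passed, though groups were well apart in each.

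Of 30 tested spindle, kinetochore and cytokinesis genes, limma called 0 and 2 had an unadjusted p under 0.05, against 35.7% of all tested genes. Estimates below 0 numbered 23, against 52.3% of all tested genes, and the median of -0.20 turned to 0.0095 with no scaling. The smallest p values were those of cdca7a, a chromatin gene with a cell cycle dependent transcript, at -0.74, and of the checkpoint gene bub3, at -0.78. Of 32 tested regulators, 2 rose and 2 fell, counts near the 8.10% and 9.02% of all tested genes called higher and lower. e2f8, an atypical E2F repressor that is itself made in S phase, read 9.97 and 9.98 in WT and 8.78 and 8.99 in mutants, and fell by 1.09 ± 0.18 (SE, adjusted p = 0.0350). With median scaling its adjusted p was 0.0608 and with no scaling 0.0672, which ends the call.

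The other called regulators were near background in at least 1 group. e2f5, an E2F that works with Rb-family repressors, rose at least 2.65-fold (adjusted p = 0.0150), since neither WT array was well above background, and ccnd3, for cyclin D3, rose at least 1.76-fold (adjusted p = 0.0402) on the same terms. e2f2 was called lower (adjusted p = 0.0343). Only 1 of 2 WT arrays and no mutant array were well above background, so no at-least fold is given for e2f2. The adjusted p just given for these 3 genes come from the fit on signals without a floor. With signals floored at the well-above-background level, limma called none of these 3 (adjusted p = 0.0575, 0.0805 and 0.478, in that order). With normexp on raw signal these 3 were no longer called and their log2 differences were 0.29, 0.080 and -0.24, in that order. That method adds an offset of 50 before the log is taken, which shrinks differences between dim signals. It therefore cannot judge these 3 genes. Of 15 tested cell cycle inhibitors, 0 rose and 1 fell, against 8.10% and 9.02% of all tested genes. cdkn1ca, for a Cip/Kip inhibitor of cyclin-dependent kinases, read 7.91 and 7.90 in WT and 6.50 and 6.55 in mutants, and fell by 1.38 ± 0.17 (SE, adjusted p = 0.0195). With 1 array left out, none of these 5 genes passed the threshold except ccnd3 without WT replicate 1. Such fits leave 1 array in a group and lose calls over all genes, so they cannot judge single genes. Over the 4 left-out arrays, log2 differences without a floor ranged from 3.10 to 3.92 for e2f5 and 1.68 to 2.68 for ccnd3. They ranged from -1.37 to -1.07 for e2f2, -1.20 to -0.98 for e2f8 and -1.40 to -1.35 for cdkn1ca.

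**Figure D4:**
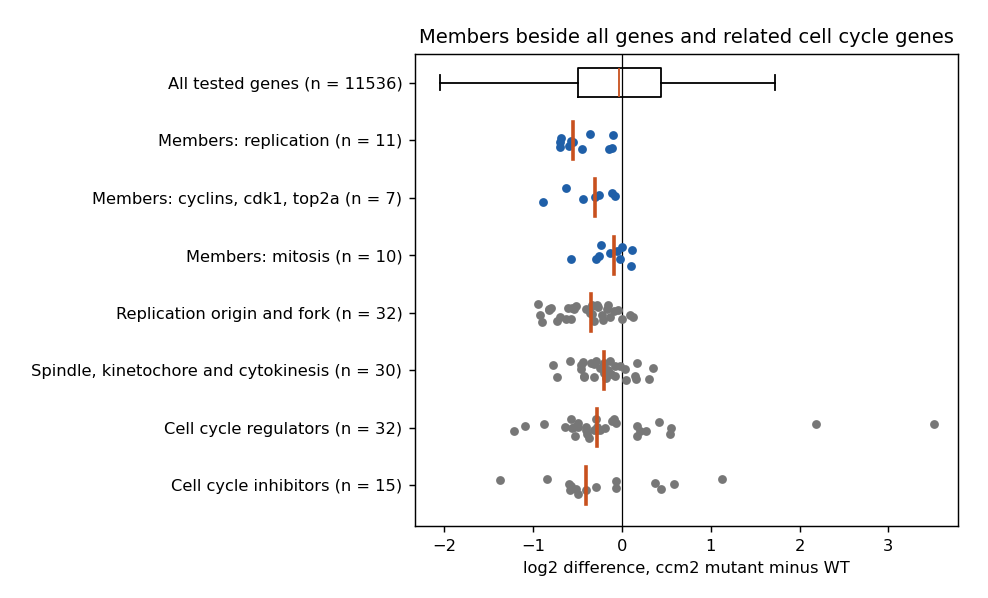
The horizontal axis is the log2 difference, ccm2 mutant minus WT; the box shows the quartiles and median of all 11536 tested genes with whiskers at percentiles 5 and 95, each dot is a gene and orange bars are medians. The replication members have a median of -0.55 (-0.40 with median scaling, -0.34 with no scaling), the mitosis members -0.09 (0.060 with median scaling, 0.12 with no scaling), and the origin and fork genes -0.35 (-0.20 and -0.14).

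The make-up of the dissections differed between the groups, and its part in these results was not tested. Defining heart markers were present in each sample: myl7 lay at 14.21 and 14.03 in WT and 14.37 and 13.87 in mutants. The summed scaled signal of 12 cardiomyocyte markers ranged from 239013 to 265756 in WT and from 201740 to 268536 in mutants. Of these 12, limma called 1 lower, nkx2.5, with a log2 difference of -1.69 (adjusted p = 0.0215), and 0 higher. Summed signal of 11 neural, retina and lens markers was 1750 to 6779 in WT and 184 to 210 in mutants, with 8 of 11 called lower, and crx and opn1mw1 were not well above background in mutants. The 11 red blood cell markers summed to 89481 to 102141 in WT and 11574 to 15129 in mutants (8 called lower, 1 higher), 9 leukocyte markers to 1312 to 1573 and 5334 to 5374 (8 higher), and 10 endothelial markers to 39892 to 40565 and 64695 to 74524 (4 higher). Of the 10 endothelial markers, 8 had log2 differences above 0, whereas nfatc1 and erg gave -0.94 and -0.24. Of 7 epicardium and fibroblast markers, limma called 1 higher and 1 lower. The 3 cartilage and pharynx markers summed to 2828 to 2947 in WT and 100.1 to 100.5 in mutants (2 called lower). The 6 skeletal muscle markers had a median log2 difference of -1.83 (3 called lower), with sums of 23808 to 26921 in WT and 19350 to 24371 in mutants.

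Some of these sums differ within WT as well. Neural, retina and lens signal was 3.87 times as high on WT 2 as on WT 1. The opposite order held for 5 liver, gut and pancreas markers, at 32147 on WT 1 and 5342 on WT 2, and for 6 skin markers, at 25238 and 14880. The summed signal of the 7 helicase and clamp genes was 1.01 times as high on WT 2, at 54958 to 55500 in WT and 36707 to 40899 in mutants. For the 5 genes of mitotic kinases and passengers the ratio of WT 2 to WT 1 was 1.19.

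**Figure D5:**
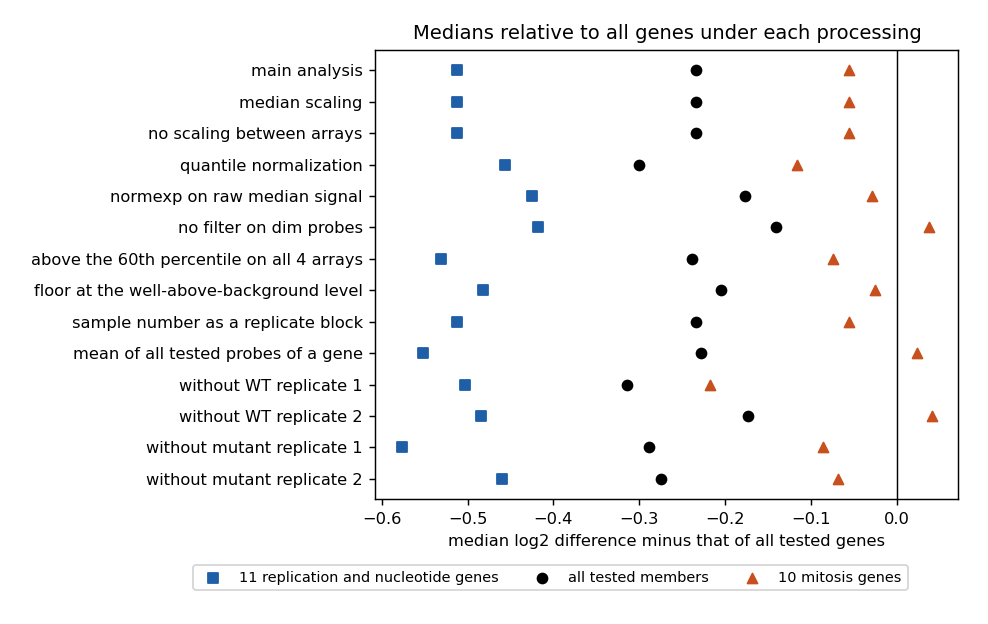
Each row is a way of processing the data, and the horizontal axis is the median log2 difference of a group of genes minus that of all tested genes. The rows for median scaling and no scaling equal the main row by construction; the 11 replication and nucleotide genes lie between -0.58 and -0.42 in every row shown, and the 10 mitosis genes between -0.22 and 0.041, crossing 0 with no filter, with probes averaged and without WT replicate 2.

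Set against the median of all tested genes, the median of the 11 replication and nucleotide genes differed by -0.51. This distance is the same by construction with median scaling and with no scaling, and under the other processings shown it lay between -0.58 and -0.42. Single calls depended on the method: mcm2, mcm4, mcm6, mcm7 and tyms were called lower with raw signals corrected by normexp and with an intensity trend in limma, 5 of 28 in each case, against 14.0% and 13.9% of all tested genes called lower. Both counts are near these shares. No member was called higher under any processing that was run.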

How the data were processed

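RNA of 4 pools of dissected hearts (2 WT, 2 ccm2 m201 mutant, grouped by title) was labelled with Cy3 and put on 4 arrays of 1 design and 1 slide. The main intensity values are processed signals that the authors deposited. Per the file headers they come from Agilent Feature Extraction 10.5.1.1, with background subtraction, detrending within arrays, surrogates for dim spots and no scaling between arrays. In all 43803 features the deposited series table repeats these values. Raw median intensity, deposited as well, was used for 1 alternative. Quality statistics (unit: other) came from the deposited headers. There, the mutant arrays' barcodes are swapped relative to their block names, and the block names were followed. Between 54.0% and 55.9% of features were well above background and 0 were saturated. The number of arrays limits precision.

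For the comparison, the 75th percentile of an array was subtracted from its log2 signals, and 1 constant was added to all arrays. Repeated spots of 50 probes were averaged. Genes were named through the platform annotation (21061 features with 1 symbol, 22742 with none), with symbols updated through gene identifiers or accessions. No coordinates are given, since array and annotation builds differ. Probes passed the filter on at least 2 arrays at the 40th percentile (26872 probes). limma 3.58.1 (R 4.3.3; lmFit, eBayes; residual df 2) gave two-sided p-values, adjusted by Benjamini-Hochberg across those probes, with 0.05 as the threshold. A gene is its tested probe of highest mean signal. The header counts the features well above background on each array. A spot ranking within that count was called well above background, and at-least folds were taken against the signal at that rank. The code of the fit was checked on values simulated from its own estimates, which cannot judge the calls made here. Array values are printed for members whose groups do not overlap among the 10 smallest p, for the 5 of highest and 5 of lowest signal, and for pcna, cdk1, ccnd1 and top2a; from each related list, up to 3 called genes each way or else the 2 smallest p are named. The second rrm2l probe and rrm2b were singled out after their values were seen. Members and lists were chosen with earlier results of these data known. Lists are described by counts and medians, with no set test. Alternatives covered scaling, background, filters, a floor, an intensity trend, probe averaging, the threshold, a replicate block and left-out arrays. Figures were drawn with matplotlib 3.10.9.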

Additional observations from a re-analysis of the deposited data

How the results depend on the processing

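The sample numbers are no stated pairing, and deviations of same-numbered arrays correlated at 0.070 across probes. No member was called with any 1 array left out, with median scaling, no scaling, quantile normalization, no filter, the floor or the sample number as a replicate block, by limma; at an unadjusted p under 0.05 these gave 0 to 8 members, all lower. Members called lower numbered 5 with normexp on raw signal (14.0% of all genes called lower), 5 with the intensity trend (13.9%), 3 of 27 with the stricter filter (above the 60th percentile on all 4 arrays; 13.2%), 3 with probes averaged (11.4%) and 4 at an adjusted p under 0.1 (14.8%). All of these counts are near their background shares. There was 1 with rrm2l through its other probe or rrm2 read as rrm2b, both chosen after seeing the data. The cause was not tested. The median of the set was -0.12 with median scaling and -0.059 with no scaling, as all genes moved by the same amount; without single arrays it ranged from -0.33 to -0.23.

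Over all genes, 934 were higher and 1040 lower. The counts were 511 and 604 with no filter, 1424 and 1599 with the trend, 1518 and 1711 at an adjusted p under 0.1, and 364 and 440 with the replicate block; normexp gave 1612 lower. Without single arrays limma called 0 to 265 higher and 0 to 311 lower; it called 0 without mutant replicate 1 (unadjusted p under 0.05 for 1637 higher and 2031 lower) and 0 without mutant replicate 2 (1794 and 1973). Median scaling gave 1142 higher and 807 lower, and no scaling 1291 and 769.

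None of the sign changes concerned a gene called in the main analysis. Of the genes below, rrm2l was called lower by limma with probes averaged, at -1.04 (adjusted p = 0.0212). With median scaling and with no scaling, estimates turned to 0.0057 and 0.066 for mcm5, 0.047 and 0.11 for rrm1, 0.040 and 0.10 for rrm2l, 0.079 and 0.14 for ccnb1, 0.036 and 0.096 for ccnb2, 0.10 and 0.16 for aurka, 0.14 and 0.20 for cdc20, 0.15 and 0.21 for ube2c and 0.017 and 0.077 for kif11. Quantile normalization gave 0.0057 for ube2c, and averaged probes 0.21 for birc5a and 0.0026 for cdc20. Without single arrays, estimates ranged from -0.26 to 0.043 for rrm1, -0.16 to 0.0081 for ccnb1, -0.26 to 0.022 for ccnb2, -0.13 to 0.028 for aurka, -0.099 to 0.29 for plk1, -0.19 to 0.15 for cdc20, -0.13 to 0.13 for ube2c and -0.33 to 0.052 for kif11. In a group left with 1 array, that array is assumed to vary like the other group. Spots not well above background limit what dim genes can show.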
